A study of Mus musculus with 6 samples.

Results

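The 40 genes described here encode ribosome biogenesis and nucleolar factors, and they were taken by symbol from the 22706 genes of a table of RNA-seq values of mouse muscle stem cells (MuSCs). They are the transcription factor gene Myc, 7 genes of RNA polymerase I transcription, 7 genes of small nucleolar ribonucleoproteins (snoRNPs), 10 genes of the small subunit processome and of small subunit maturation, 13 genes of large subunit assembly, and the genes of the abundant nucleolar proteins nucleolin (Ncl) and nucleophosmin (Npm1). Each symbol matched a single row of the table, and all 40 genes had a mean high enough to be tested.

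Ribosomes are built in the nucleolus, where RNA polymerase I transcribes the ribosomal RNA precursor and where snoRNPs, helicases, GTPases and scaffold proteins modify, fold and cut it while ribosomal proteins join. MYC is known as an activator of many genes of this pathway and of RNA polymerase I itself. Quiescent MuSCs are small cells with little RNA, and growth of the nucleolus and of RNA content is known to accompany their activation.

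The libraries came from 3 groups of mice with 2 libraries each: control (wild type), mdx, and Sirt6mKO/mdx. All carry the strain label C57BL/6. Mdx mice have a mutation of the dystrophin gene Dmd, which models Duchenne muscular dystrophy, and the study lists the line C57BL/10ScSn-Dmdmdx/J. Sirt6mKO/mdx mice carry the mdx mutation and, per the study's methods, a floxed Sirt6 allele recombined by the constitutive Pax7-ICN Cre, so the deletion is made in the Pax7 lineage and not only in adult MuSCs. The Cre mice also carry a ROSA26-YFP reporter. Control and mdx animals keep Sirt6. The labels give no age. The study gives age ranges in weeks, those of young adult mice, for the males in the figures that hold these groups, and ties none to a library. Cells were sorted by flow cytometry from digested limb and trunk muscle as negative for Sca1 and for blood and endothelial surface markers and positive for MuSC surface markers or a fluorescent reporter, and were not cultured.

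Values are normalized read counts: reads per gene divided by a size factor for each library and rounded. Each library held about 4397699 to 9744197 reads. Markers of MuSCs were present in every library, with a summed value of 22036 to 29745 over 10 genes. Of these, Sdc4 was called lower than control in both other groups and higher in Sirt6mKO/mdx than in mdx, with 7692 and 6224 for control, 1100 and 1049 for mdx and 2753 and 2822 for Sirt6mKO/mdx. In the same list, Vcam1 (7031 and 5753), Cdh15 (2818 and 2220) and Itga7 (3022 and 3250) were highest in mdx and were called in no comparison. Markers of other cells differed between the groups as well. The summed values of 8 myofibre markers were 7779 and 10410 for control, 5756 and 2025 for mdx and 11755 and 5918 for Sirt6mKO/mdx, and their median log2 fold change was -1.36 in mdx against control (4 called lower) and 1.19 in Sirt6mKO/mdx against mdx (3 called higher). Those of 6 endothelial markers were 923 and 780, 440 and 438, and 637 and 652 in the same order. Of the 5 of them tested, 2 (Kdr and Pecam1) were called lower in mdx, with a median of -1.94, and the median against mdx in Sirt6mKO/mdx was 1.48. Of 6 fibro-adipogenic markers, with sums of 4270 to 8193, 2 were called higher in mdx (median 0.88), namely Col1a1, which was also called lower in Sirt6mKO/mdx than in mdx, and Ly6a, the gene of Sca1, which had 3 and 9 for control, 79 and 21 for mdx and 65 and 15 for Sirt6mKO/mdx. The sums of 6 leukocyte markers were 81 to 181. Of these, Lyz2 was called higher in both other groups than in control, and Cd68 was called lower in mdx, with 86 and 88 for control, 30 and 26 for mdx and 107 and 56 for Sirt6mKO/mdx. The defining markers Ptprc of leukocytes and Pecam1 of endothelium had values of 0 to 19 and 20 to 199, and the part of such cells in the results was not tested. Tek, with 348 to 669, made up most of the endothelial sums, and Kdr had only 0 to 19. Vwf went the other way, with 18 and 28 for control and 33 and 37 for mdx. The libraries differed in composition: protein-coding genes held 63.4% and 78.8% of the summed values for control, 62.1% and 65.9% for mdx but 39.7% and 42.8% for Sirt6mKO/mdx. The sex-linked genes did not match a single sex. Xist, which is transcribed from the inactive X chromosome of females, had values of 16772 and 12950 in control but 7 to 34 in the other 4 libraries, and the Y-linked gene Ddx3y had 3 and 8 in control but 1024 to 1767 in the others. In every comparison with control, sex and genotype therefore cannot be told apart. The libraries labelled Sirt6mKO/mdx had Sirt6 values of 37 and 30, next to 33 and 40 for mdx and 41 and 32 for control. The log2 fold change of the labelled deletion against mdx was -0.12 (95% interval -1.19 to 0.95), so a lower level was not detectable. Values are per gene, and reads of the deleted exons alone were not analysed here.

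Levels of the 40 genes, as mean normalized read counts per kilobase of exonic sequence, spanned from 9.7 (Wdr12) to 740 (Myc) in control. In mdx the highest was Npm1 with 250, and in Sirt6mKO/mdx it was again Myc with 492. Wdr12 remained the lowest with 9.91 and 7.9. The length counts every annotated exonic base of a gene, 11955 for Wdr12 and 2665 for Npm1, so this ranking depends on the annotation. By normalized read count, the mdx mean was 2390 for Ncl and 667 for Npm1, and Polr1e lay below Wdr12 in each group. The median over the 40 genes was 73.8 per kilobase in control, 68.2 in mdx and 65.6 in Sirt6mKO/mdx. The value resting on the fewest reads was that of Gar1 in Sirt6mKO/mdx replicate 2, with about 17. Of the 40 genes, 27 shared no exonic base with another annotated gene, and the largest share was 8.12% for Nop56.

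**Figure D1:**
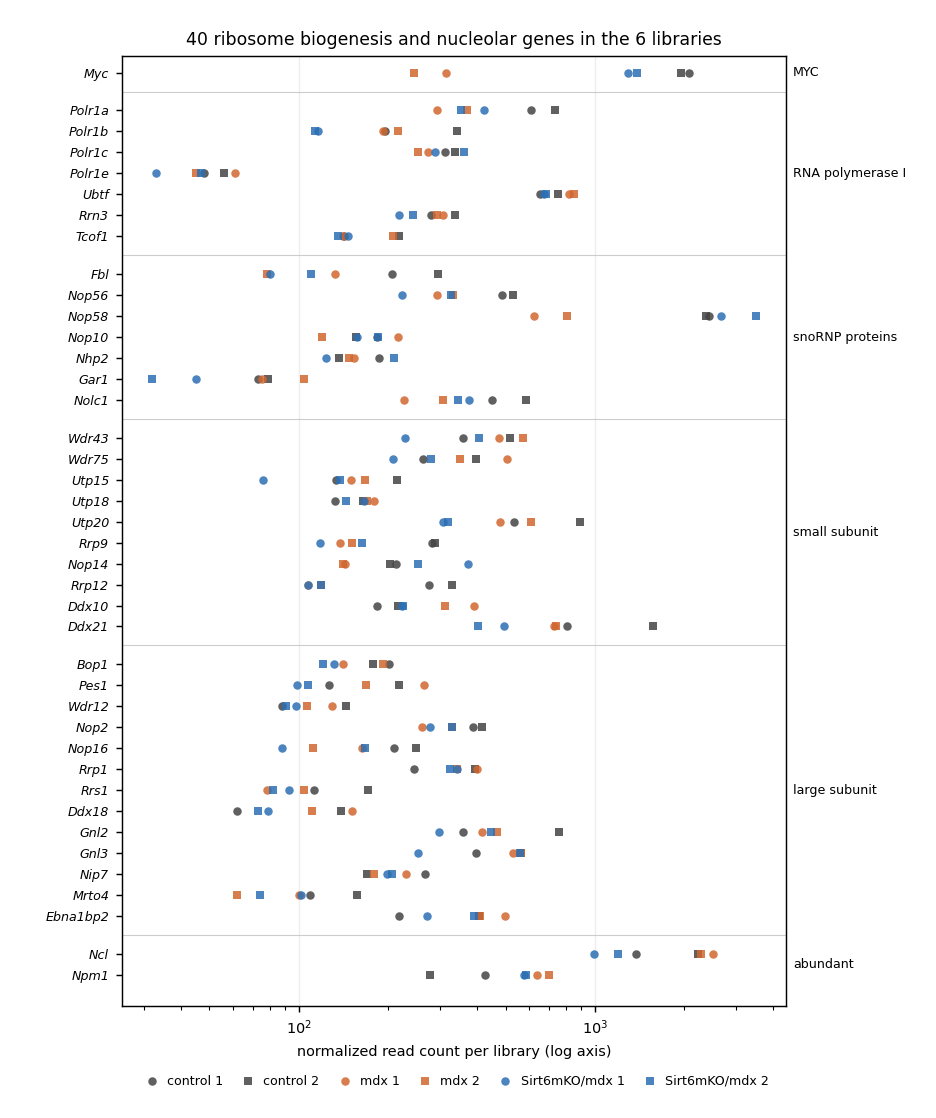
Normalized read count (log axis) of each of the 40 genes in the 6 libraries, ordered by role, where colour marks the group and the symbol shape marks the replicate. The mdx values of Myc (246 to 314) and Nop58 (622 to 802) lie below those of the other 4 libraries, while the control and mdx values of 19 of the 40 genes overlap.

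Of the 40 genes, 11 were called in at least 1 of the 3 comparisons and 29 in none. A gene was called when limma gave a Benjamini-Hochberg adjusted p of at most 0.05 over all 15915 tested genes and a log2 fold change of at least 1 in size. In mdx against control, 5 of the 40 genes were lower (12.5%), where 7.34% of all tested genes were called lower. None was called higher by limma, against 6.89% of all tested genes. At an unadjusted limma p under 0.05, 2 were higher and 9 lower, against 15.5% and 15.4% of all tested genes. Values of both mdx libraries lay below both control libraries for 15 genes (37.5%) and above for 6 (15%), against 28.3% and 28.7% of all tested genes. The median log2 fold change of the 40 genes was -0.09, and that of all tested genes was 0.0. As these are bulk values, fewer cells expressing a gene and less of its RNA per cell cannot be told apart.

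Between Sirt6mKO/mdx and mdx, 3 of the 40 genes were called higher in the former (7.5%) and 1 lower (2.5%). The background was 5.62% called higher and 2.54% called lower. At an unadjusted limma p under 0.05, 3 were higher and 9 lower, against 14.1% and 11.1% of all tested genes. Groups did not overlap and were lower in Sirt6mKO/mdx for 18 genes (45.0%), against 27.2% of all tested genes, and were higher for 5 (12.5%), against 28.8%. The median was -0.24 over the 40 genes and 0.02 over all tested genes. In Sirt6mKO/mdx against control, 6 genes were called lower (15%, background 2.68%), and limma called none higher (background 5.19%). At an unadjusted limma p under 0.05, 1 was higher and 12 lower, against 13.1% and 11.0% of all tested genes. Non-overlapping values were lower for 20 genes (50%, background 25.3%) and higher for 4 (10%, background 26.3%), and the medians were -0.46 and 0.01. These comparisons share libraries, so their counts are not independent.

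The scaling moved these medians. With total counts in place of size factors, the median of all tested genes was -0.58 in both comparisons of Sirt6mKO/mdx, and with the total of protein-coding genes it was 0.16 in mdx and 0.17 in Sirt6mKO/mdx against control. Relative to the median of all tested genes, the median of the 40 genes was -0.09 in mdx against control under size factors and under both of these scalings. In the same order it was -0.26, -0.28 and -0.26 in Sirt6mKO/mdx against mdx, and -0.47, -0.48 and -0.46 in Sirt6mKO/mdx against control. Other settings moved it more. In mdx against control it was -0.33 without control replicate 1, -0.2 and -0.21 without mdx replicate 1 and 2, and above 0 (0.07) without control replicate 2. It was -0.14 in Sirt6mKO/mdx against mdx with a minimum mean of 50 and -0.36 without Sirt6mKO/mdx replicate 2. Against control it was -0.69 and -0.26 without control replicate 1 and 2. Single libraries mattered for the calls: the 6 genes lower in Sirt6mKO/mdx against control became 0 without control replicate 2, and also 0 without either Sirt6mKO/mdx library. Without control replicate 1, the gene called lower in Sirt6mKO/mdx against mdx was joined by Pes1, and it lost its call when any mdx or Sirt6mKO/mdx library was left out. The 5 genes lower in mdx became 3 without control replicate 2 or without mdx replicate 1, and 7 without control replicate 1.

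**Figure D2:**
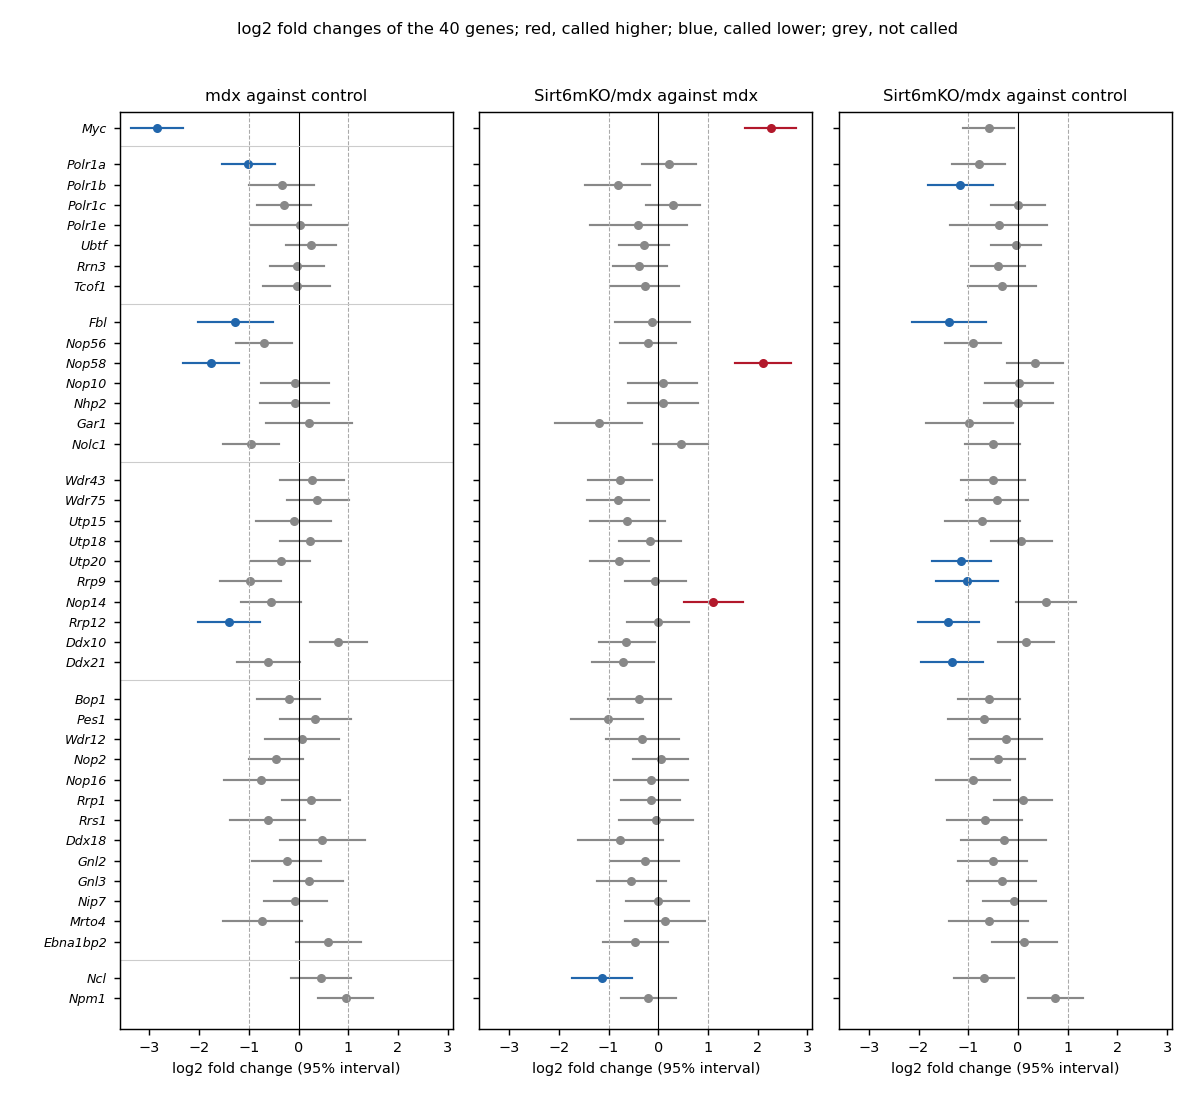
Log2 fold change (x axis) with its 95% interval for each of the 40 genes in the 3 comparisons, where red marks genes called higher, blue those called lower and dashed lines a log2 fold change of 1 in either direction. The points of Myc and Nop58 lie far to the left in mdx against control (-2.85 and -1.76) and far to the right in Sirt6mKO/mdx against mdx (2.26 and 2.11), whereas the large subunit genes hold no called gene.

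Myc (ENSMUSG00000022346, GRCm38 chromosome 15, 61985391 to 61990374) showed the largest difference of the 40 genes in mdx against control and in Sirt6mKO/mdx against mdx. Its normalized read counts were 2072 and 1950 for control, 314 and 246 for mdx and 1288 and 1385 for Sirt6mKO/mdx. The 3 groups did not overlap, with mdx lowest and control highest. Myc was 7.21-fold lower in mdx than in control (log2 fold change -2.85, SE 0.24, limma with Benjamini-Hochberg adjusted p = 2.4e-06). It was 4.79-fold higher in Sirt6mKO/mdx than in mdx (2.26, SE 0.24, adjusted p = 4.5e-05 by limma). Both calls held without any single library. With one prior variance for all genes the call of Myc against mdx was lost, when no gene of the whole table was called. Against control, Sirt6mKO/mdx had a log2 fold change of -0.59 (95% interval -1.11 to -0.07, limma adjusted p = 0.15), which did not pass the test.

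A list of 12 immediate early genes, Fos and Egr1 among them, had the same order of groups in its sum. The summed values were 74854 and 80223 for control, 9480 and 11390 for mdx and 66349 and 66828 for Sirt6mKO/mdx. Fos alone had 10775 and 14930 for control, 1654 and 1921 for mdx and 8993 and 10412 for Sirt6mKO/mdx. Egr1, with 12387 and 16203, 2544 and 3725, and 15723 and 14748 in the same order, had overlapping values in control and Sirt6mKO/mdx. In Sirt6mKO/mdx against control, 5 of the 12 genes had a log2 fold change above 0 and 7 below. Immediate early genes are switched on within minutes of a stimulus, and Myc is itself such an early response gene. The sums of the myofibre and endothelial markers given above and the values of Sdc4 and Cd68 were lowest in mdx as well. Other markers of the same lists went the other way: Vcam1, Cdh15 and Itga7 were highest in mdx, and Lyz2 was called higher there than in control. The median log2 fold change of the 10 MuSC markers was -0.1 in mdx against control. The part of these genes in the Myc result was not tested. Of 10 proliferation genes, 7 were called higher in mdx than in control (median log2 fold change 2.04) and 3 lower in Sirt6mKO/mdx than in mdx (-1.02), and the median in Sirt6mKO/mdx against control was 1.18. Their sums were 978 and 831 for control, 1395 and 1949 for mdx and 721 and 1202 for Sirt6mKO/mdx, and Pcna, with 764 and 490, made up most of the control sums.

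Other genes of the MYC network were looked at beside it, 11 in number, of which 2 were called higher and 2 lower in mdx than in control (18.2% each, against 6.89% and 7.34% of all tested genes). Mycl, a paralog of Myc, had values of 21 and 32 for control, 128 and 115 for mdx and 71 and 168 for Sirt6mKO/mdx. It was thus higher in mdx, where Myc was lower (log2 fold change 2.18, SE 0.45, limma adjusted p = 0.00413), and higher in Sirt6mKO/mdx than in control (2.03, limma adjusted p = 0.0117). Mycn, the other paralog, was also called higher in mdx (1.12, limma adjusted p = 0.0492), from 53 and 116 to 164 and 180. Mxd1, which competes with MYC for its partner MAX, had the same order of group means as Myc: 282 and 229 for control, 62 and 65 for mdx and 164 and 248 for Sirt6mKO/mdx. It was called lower in mdx (-1.98, limma adjusted p = 0.00056) and higher in Sirt6mKO/mdx than in mdx (1.65, limma adjusted p = 0.00448).

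Of the 7 genes of RNA polymerase I transcription, only the 2 genes of its largest subunits were called, each in a different comparison (1 of 7 or 14.3% lower, against 7.34% of all tested genes in mdx and 2.68% in Sirt6mKO/mdx against control). Polr1a (chromosome 6, 71909053 to 71979356), which encodes the largest subunit, had values of 609 and 733 for control, 294 and 371 for mdx and 421 and 352 for Sirt6mKO/mdx. Both groups with the mdx mutation lay below control and overlapped each other. Polr1a was 2.02-fold lower in mdx than in control (log2 fold change -1.01, SE 0.25, limma adjusted p = 0.013), just past the minimum size of a call. In Sirt6mKO/mdx it was -0.79 against control (SE 0.25, limma adjusted p = 0.064) and 0.22 against mdx (SE 0.25, limma adjusted p = 0.634). The last value turned to -0.41 with total counts. The call in mdx was lost without control replicate 2 (-0.88) or mdx replicate 1 (-0.85), and the size fell short with total counts (-0.99) and with the protein-coding total (-0.85).

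Polr1b (chromosome 2, 129100995 to 129126594), the gene of the second largest subunit, had values of 196 and 342 for control, 192 and 217 for mdx and 116 and 114 for Sirt6mKO/mdx. Sirt6mKO/mdx was the lowest group. The gene was 2.24-fold lower there than in control (log2 fold change -1.16, SE 0.31, limma adjusted p = 0.0299), while the difference from mdx was -0.82 (limma adjusted p = 0.112). The call against control was lost when any library other than control replicate 1 was left out.

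Ubtf, whose product UBF bends and marks active ribosomal DNA, had values of 650 and 749 for control, 815 and 849 for mdx and 672 and 685 for Sirt6mKO/mdx. It did not pass the test in any comparison: the log2 fold change was 0.25 in mdx against control (SE 0.23, limma adjusted p = 0.502), -0.29 in Sirt6mKO/mdx against mdx (SE 0.23, limma adjusted p = 0.475) and -0.04 in Sirt6mKO/mdx against control (SE 0.23, limma adjusted p = 0.946). The 95% interval of the first was -0.25 to 0.75, so a 2-fold difference lies outside it. Rrn3, which encodes the initiation factor that recruits the polymerase, ranged from 218 to 337 and lay lower in both Sirt6mKO/mdx libraries than in the other 4. Polr1c and Polr1e, a subunit shared with RNA polymerase III and a small accessory subunit, ranged from 253 to 361 and from 33 to 61. Tcof1, the gene of the nucleolar phosphoprotein treacle, ranged from 136 to 219, with overlap between each pair of groups.

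Box C/D snoRNPs guide methylation of ribosomal RNA and hold the methyltransferase fibrillarin (Fbl), NOP56, NOP58 and a small RNA-binding protein, while box H/ACA snoRNPs guide pseudouridylation and include NOP10, NHP2 and GAR1. Of the 7 snoRNP genes, 4 lay below control in both mdx libraries (57.1%, against 28.3% of all tested genes): Nop58, Fbl, Nop56 and Nolc1. Nop58 (ENSMUSG00000026020, chromosome 1, 59685006 to 59711510) had values of 2427 and 2374 for control, 622 and 802 for mdx and 2660 and 3494 for Sirt6mKO/mdx. The mdx libraries were far below the other 4, and Sirt6mKO/mdx lay above control. Nop58 was 3.4-fold lower in mdx than in control (log2 fold change -1.76, SE 0.27, limma adjusted p = 0.00041) and 4.31-fold higher in Sirt6mKO/mdx than in mdx (2.11, SE 0.27, limma adjusted p = 0.00018). Both calls held without any single library. Against control the value in Sirt6mKO/mdx was 0.34 (95% interval -0.22 to 0.91, limma adjusted p = 0.467). Nop58 was thus lowest in mdx, as were the immediate early genes and the sums of the myofibre and endothelial markers given above. The part of these in its values was not tested either.

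Fbl (ENSMUSG00000046865, chromosome 7, 28169748 to 28179269) had values of 207 and 296 for control, 133 and 78 for mdx and 80 and 110 for Sirt6mKO/mdx. Both mdx groups were below control and overlapped each other. The gene was 2.42-fold lower in mdx (log2 fold change -1.27, SE 0.35, limma adjusted p = 0.0223) and 2.62-fold lower in Sirt6mKO/mdx (-1.39, SE 0.35, limma adjusted p = 0.0232) than in control. Between Sirt6mKO/mdx and mdx the difference was -0.12 (SE 0.35, 95% interval -0.87 to 0.63, limma adjusted p = 0.874). The call in mdx was lost without control replicate 2 or mdx replicate 2, with log2 fold changes of -1.02 and -0.89, and that in Sirt6mKO/mdx without control replicate 2 or either Sirt6mKO/mdx library, with values of -1.13 to -1.62.

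Nop56, the partner of Nop58 in the same particle, had 485 and 527 for control, 293 and 332 for mdx and 224 and 326 for Sirt6mKO/mdx. Both mdx groups lay below control, but no difference passed both criteria: the log2 fold change was -0.7 in mdx (limma adjusted p = 0.0843) and -0.9 in Sirt6mKO/mdx (limma adjusted p = 0.0448) against control. Side by side, the log2 fold changes of Nop56 and Nop58 in Sirt6mKO/mdx against mdx were -0.21 and 2.11, and their difference was not tested. Nolc1, a chaperone of snoRNPs, had 450 and 587 for control, 226 and 306 for mdx and 375 and 346 for Sirt6mKO/mdx. Its log2 fold change in mdx was -0.96 with a limma adjusted p of 0.0211, just short of the minimum size of a call, and it was called without control replicate 1 and without mdx replicate 2.

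Of the H/ACA genes, Nop10 (120 to 217 over the 6 libraries) and Nhp2 (124 to 210) overlapped between all groups, and their log2 fold changes lay between -0.08 and 0.1 in the 3 comparisons. Gar1 had 73 and 79 for control, 75 and 104 for mdx and 45 and 32 for Sirt6mKO/mdx. Its values in Sirt6mKO/mdx were the lowest, but the log2 fold change of -1.2 against mdx had an adjusted p of 0.0805 by limma. Of 11 other genes of snoRNPs and snoRNA assembly, Dkc1, the pseudouridine synthase of the same particle as Gar1, fell from 417 and 389 in mdx to 94 and 175 in Sirt6mKO/mdx (-1.64, limma adjusted p = 0.0116), next to control values of 174 and 369. Nhp2l1, the RNA-binding protein gene of the box C/D particle, had 205 and 140 for control, 45 and 36 for mdx and 98 and 138 for Sirt6mKO/mdx. It was lower in mdx than in control (-2.05, limma adjusted p = 0.00157) and higher in Sirt6mKO/mdx than in mdx (1.51, limma adjusted p = 0.0198). Like Nop58 it was lowest in mdx, but its Sirt6mKO/mdx values lay below control, where those of Nop58 lay above.

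**Figure D3:**
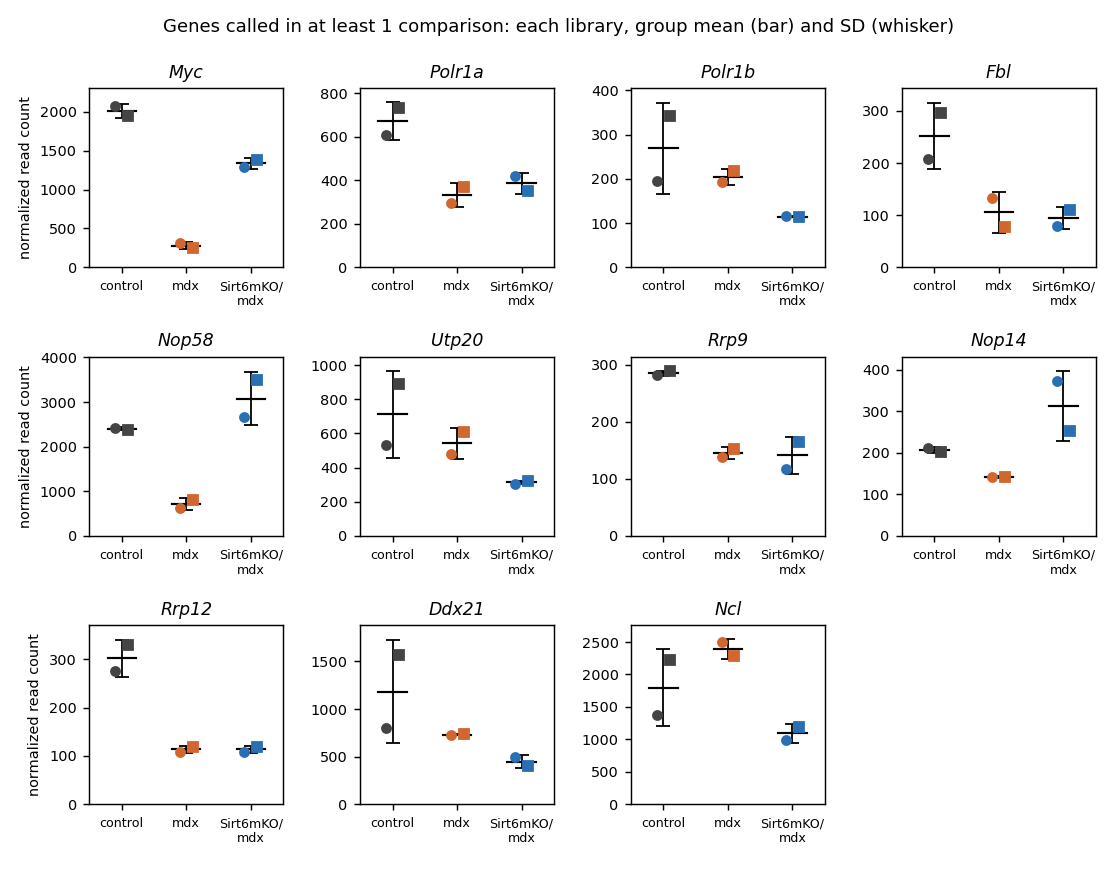
Normalized read count (y axis, from 0) of the 11 genes called in at least 1 comparison, with a point for each library, a horizontal bar at the group mean and a whisker of 1 SD (n = 2). Myc and Nop58 are lowest in mdx, with Sirt6mKO/mdx below control for Myc and above it for Nop58. Fbl, Polr1a, Rrp12 and Rrp9 are high in control and lower in both other groups. The control whiskers of Ddx21, Utp20 and Polr1b are wide, with replicate 2 above replicate 1.

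Several of the 40 genes are hosts of snoRNA genes, which are processed from their introns, so host and snoRNA come from a shared primary transcript. The table held 15 snoRNA genes on the same strand within 5 of the hosts (Nop56, Nop58, Wdr43, Gnl3 and Ncl), of which 8 overlapped no annotated exon of the host. The 4 within Nop58 are of the box C/D type, the RNAs that NOP58 itself binds. Their sequences are printed from GENCODE transcripts (GRCm38, plus strand of chromosome 1), with capitals at the first match to TGATG, the core of box C, and at the last match to CTGA, box D.
Snord70 (chr1:59691934-59692020): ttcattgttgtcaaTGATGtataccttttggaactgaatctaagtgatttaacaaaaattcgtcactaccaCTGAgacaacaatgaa
Gm26293 (chr1:59692509-59692592): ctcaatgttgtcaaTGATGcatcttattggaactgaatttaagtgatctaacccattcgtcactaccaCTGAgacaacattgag
Gm26287 (chr1:59704258-59704338): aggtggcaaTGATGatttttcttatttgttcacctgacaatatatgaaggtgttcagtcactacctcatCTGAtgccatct
Snord11 (chr1:59704790-59704873): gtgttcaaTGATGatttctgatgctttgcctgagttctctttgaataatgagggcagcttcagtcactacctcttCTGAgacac

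These snoRNAs did not follow their host in mdx. Snord70 had 994 and 799 for control, 3917 and 3021 for mdx and 6232 and 8642 for Sirt6mKO/mdx, so it was higher in mdx (log2 fold change 1.95, SE 0.3, limma adjusted p = 0.00045), where Nop58 was lower. Gm26293 rose from 633 and 717 to 1764 and 1765 (1.39, limma adjusted p = 0.0103), and Snord11 from 2707 and 2983 to 6450 and 5621 (1.08, limma adjusted p = 0.0296). Gm26287 had 2190 and 2122 in mdx, next to 1252 and 1649 in control, and did not pass the test (0.58, limma adjusted p = 0.188). In Sirt6mKO/mdx against mdx, where Nop58 was higher, Gm26287 (1.34, limma adjusted p = 0.0107), Gm26293 (1.78, limma adjusted p = 0.00404) and Snord70 (1.09, limma adjusted p = 0.0341) were called higher as well. The call of Snord70 in mdx held under every alternative run, while that of Gm26293 was lost without control replicate 1 or either mdx library and that of Snord11 without any single library or with only the 2 groups compared. Both were also lost without a minimum mean and with one prior variance. The 3 calls against mdx became 1 (Gm26293) with total counts and without mdx replicate 1 or Sirt6mKO/mdx replicate 1, 2 (Gm26287 and Gm26293) with only the 2 groups compared, and no call was left without replicate 2 of either group, without a minimum mean or with one prior variance, when all 3 had an unadjusted p under 0.05 by limma. Snord70 and Gm26293 share a run of 25 identical bases, and reads that fit both were left out by the counting, so their values are uncertain. Gm26293 also overlaps 4 annotated exon entries of Nop58, and reads on both of these genes were left out too.

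**Figure D4:**
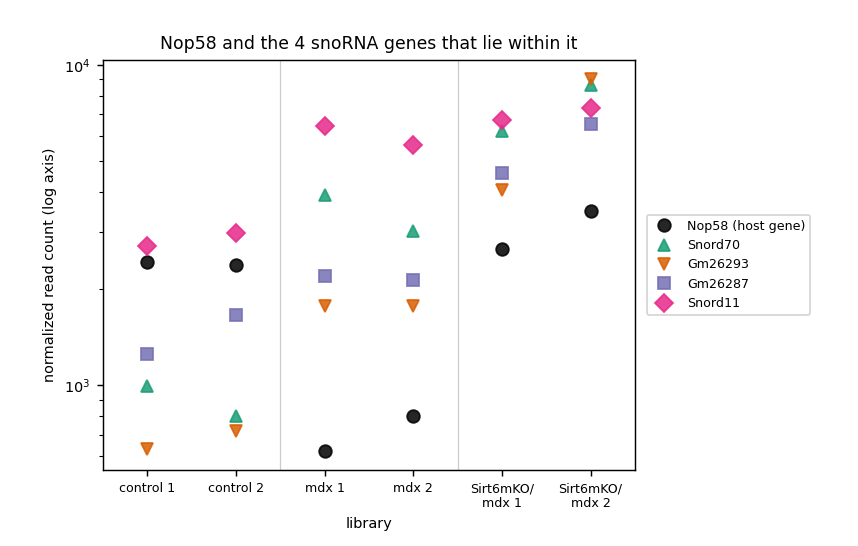
Normalized read count (log axis) of Nop58 and of the 4 snoRNA genes within it, in each of the 6 libraries (x axis), where each symbol is a gene. The host gene drops to 622 and 802 in mdx, while Snord70 goes from 994 and 799 to 3917 and 3021, and all 4 snoRNAs lie above their control values in Sirt6mKO/mdx.

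Over the 15 nested snoRNAs, 9 were called higher and 1 lower in mdx than in control, 6 higher and 0 lower in Sirt6mKO/mdx than in mdx, and 12 higher and 0 lower in Sirt6mKO/mdx than in control. Of all 258 tested snoRNA genes, 26.4% were called higher and 3.88% lower in mdx against control, 39.9% higher in Sirt6mKO/mdx against mdx and 59.3% higher in Sirt6mKO/mdx against control. These counts depended on the fit. The 9 became 1 without a minimum mean and 1 with one prior variance for all genes, 2 without mdx replicate 1, 5 without control replicate 1 and 4 without either Sirt6mKO/mdx library. The 6 became 3 with total counts, 1 without mdx replicate 2 and 2 without Sirt6mKO/mdx replicate 1. It became 0 by limma without Sirt6mKO/mdx replicate 2 (8 higher at an unadjusted p under 0.05), without a minimum mean (9) and with one prior variance (9). The 12 became 6 without a minimum mean, 1 with one prior variance, and 7 and 5 without Sirt6mKO/mdx replicate 1 and 2. The shares over all 258 fell as well. Without a minimum mean they were 5.84%, 1.87% and 15.2% of 428 in the order of the comparisons. The 26.4% became 9.3% without mdx replicate 1 and 3.88% with one prior variance. The 39.9% became 20.9% with total counts, 7.75% without mdx replicate 2, 6.59% and 4.65% without Sirt6mKO/mdx replicate 1 and 2, and 0.0% with one prior variance, when no gene of the whole table was called by limma (3156 had an unadjusted p under 0.05). The 59.3% became 32.9% and 29.5% without Sirt6mKO/mdx replicate 1 and 2, and 6.98% with one prior variance. The nested gene called lower in mdx was Snord92 within Wdr43, which had 6757 and 3708 in control and 2739 and 2016 in mdx (-1.09, limma adjusted p = 0.0484). This call was lost with total counts, a pseudocount of 0.1, no minimum mean, one prior variance, only the 2 groups compared and the protein-coding total, and without any single library other than control replicate 2. Snord82 within Ncl had 4553 and 3158 for control, 14027 and 9396 for mdx and 22515 and 18142 for Sirt6mKO/mdx. All snoRNA genes together held 18.1% and 12.4% of the summed values for control, 17.8% and 12.2% for mdx but 26.7% and 28.2% for Sirt6mKO/mdx, and the part of library composition in these values was not tested.

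The small subunit processome folds and cuts the 5′ part of the ribosomal RNA precursor. Of its 10 genes, 1 was called lower in mdx than in control, 1 higher in Sirt6mKO/mdx than in mdx and 4 lower in Sirt6mKO/mdx than in control. These shares of 10%, 10% and 40% stand next to 7.34%, 5.62% and 2.68% of all tested genes, so the first 2 are near the background. Rrp12 (chromosome 19, 41862852 to 41896153), whose product acts in export of both subunits, had 275 and 329 in control, and the same pair of values, 108 and 119, in mdx and in Sirt6mKO/mdx. It was 2.64-fold lower than control in both, with a log2 fold change of -1.4 (SE 0.29, limma adjusted p = 0.0042 in mdx and 0.00775 in Sirt6mKO/mdx). The call in mdx was lost without mdx replicate 1 (limma adjusted p = 0.054), and that in Sirt6mKO/mdx without control replicate 2 or either Sirt6mKO/mdx library. Rrp9, the gene of a U3 snoRNP protein, had a similar pattern: 281 and 288 for control, 138 and 152 for mdx and 118 and 164 for Sirt6mKO/mdx. It was called lower in Sirt6mKO/mdx (-1.03, SE 0.29, limma adjusted p = 0.0371), although that call was lost when any single library was left out, and in mdx it fell just short in size (-0.97, limma adjusted p = 0.0315).

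A second set was lowest in Sirt6mKO/mdx. Ddx21, a DEAD-box helicase gene of the nucleolus, had 802 and 1564 for control, 727 and 737 for mdx and 495 and 402 for Sirt6mKO/mdx. It was 2.51-fold lower in Sirt6mKO/mdx than in control (log2 fold change -1.33, SE 0.3, limma adjusted p = 0.0123), and -0.84 without control replicate 2, its highest library (limma adjusted p = 0.118). Utp20, which encodes a large scaffold protein, had 533 and 891 for control, 478 and 606 for mdx and 306 and 320 for Sirt6mKO/mdx. Its log2 fold change against control was -1.14 (SE 0.28, limma adjusted p = 0.0195) and -0.77 without control replicate 2 (limma adjusted p = 0.162). For both genes Sirt6mKO/mdx also lay below mdx without overlap, with log2 fold changes of -0.71 and -0.78 that did not pass the test (limma adjusted p = 0.146 and 0.0924). Of the 10 genes, 7 had such lower, non-overlapping values in Sirt6mKO/mdx than in mdx, a share of 70.0% next to 27.2% of all tested genes, and the median log2 fold change was -0.63 for the group and 0.02 for all tested genes.

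Nop14 was the exception in the small subunit group. Its values were 213 and 203 for control, 143 and 141 for mdx and 373 and 253 for Sirt6mKO/mdx, so the 3 groups did not overlap and Sirt6mKO/mdx was the highest. It was 2.16-fold higher in Sirt6mKO/mdx than in mdx (log2 fold change 1.11, SE 0.28, limma adjusted p = 0.0248). The call was lost when any mdx or Sirt6mKO/mdx library was left out (log2 fold changes of 0.83 to 1.39) and with total counts (0.48, limma adjusted p = 0.286). Of the exonic bases of Nop14, 5.27% are shared with Gm15522. Ddx10, another helicase gene, had 184 and 217 for control, 392 and 312 for mdx and 224 and 225 for Sirt6mKO/mdx. The log2 fold change of 0.8 in mdx had a limma adjusted p of 0.0492 but was short of the minimum size. Wdr43 (229 to 570), Wdr75 (209 to 506), Utp15 (76 to 214) and Utp18 (133 to 179), genes of scaffold subcomplexes of the processome, were called in no comparison.

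The 13 genes of large subunit assembly held no called gene in any of the 3 comparisons by limma. In each comparison 1 of them had an unadjusted limma p under 0.05. Of all 15915 tested genes, 4930 had such a p in mdx against control. The counts were 4004 in Sirt6mKO/mdx against mdx and 3828 in Sirt6mKO/mdx against control. With 6.89% of all tested genes called higher and 7.34% lower in mdx against control, and smaller shares in the other comparisons, 0 of 13 is near the background. Pes1, Bop1 and Wdr12 encode a stable complex that is needed to cut the precursor of the large subunit RNAs. Pes1 had 127 and 218 for control, 264 and 169 for mdx and 99 and 108 for Sirt6mKO/mdx. It was the lowest of the 13 in Sirt6mKO/mdx against mdx, with a log2 fold change of -1.02 (limma adjusted p = 0.073). The values of its partners were 121 to 202 for Bop1 and 88 to 144 for Wdr12, with log2 fold changes against mdx of -0.38 and -0.32.

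Nop16, a late-binding nucleolar protein gene, had the lowest values of the 13 relative to control, with -0.75 in mdx (limma adjusted p = 0.156) and -0.91 in Sirt6mKO/mdx (limma adjusted p = 0.124). The same direction was measured for Mrto4, whose product holds the place of the ribosomal stalk proteins (-0.73 and -0.59), for Rrs1, which helps to bring in the 5S ribonucleoprotein (-0.62 and -0.67), and for Nop2, a cytosine methyltransferase gene (-0.45 and -0.41). The nucleolar GTPase genes Gnl2 (297 to 754) and Gnl3 (252 to 564), the helicase gene Ddx18 (62 to 151), Rrp1 (245 to 401), Nip7 (170 to 267) and Ebna1bp2 (218 to 496) overlapped between control and both other groups, except that Ebna1bp2 was higher in both mdx libraries than in control. The median log2 fold change of the 13 genes in Sirt6mKO/mdx was -0.27 against mdx and -0.41 against control, next to 0.02 and 0.01 for all tested genes.

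Ncl (ENSMUSG00000026234, chromosome 1, 86344719 to 86359455) encodes nucleolin, which binds nascent ribosomal RNA. Its values were 1378 and 2219 for control, 2499 and 2281 for mdx and 990 and 1199 for Sirt6mKO/mdx. Sirt6mKO/mdx was the lowest group and mdx the highest, with control spread between them. Ncl was 2.19-fold lower in Sirt6mKO/mdx than in mdx (log2 fold change -1.13, SE 0.28, limma adjusted p = 0.0222). The call was lost when any mdx or Sirt6mKO/mdx library was left out, with values of -0.99 to -1.27. In mdx against control the log2 fold change was 0.45 (SE 0.28, limma adjusted p = 0.302), and in Sirt6mKO/mdx against control it was -0.68 (SE 0.28, limma adjusted p = 0.152). The snoRNAs within Ncl were higher in Sirt6mKO/mdx than in control, as given above for Snord82, and Snora75 and Gm24148 had log2 fold changes of 2.13 and 2.26.

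Npm1 (chromosome 11, 33152287 to 33163206), the gene of the histone and ribosome chaperone nucleophosmin, had values of 426 and 278 for control, 637 and 697 for mdx and 574 and 586 for Sirt6mKO/mdx. Both groups with the mdx mutation lay above control. The log2 fold change was 0.95 in mdx (SE 0.26, limma adjusted p = 0.0213), just under the minimum size of a call, and 0.75 in Sirt6mKO/mdx (SE 0.26, limma adjusted p = 0.0866). It passed both criteria in mdx without control replicate 1 (1.26, limma adjusted p = 0.0143) and with the protein-coding total (1.12, limma adjusted p = 0.00909). Between Sirt6mKO/mdx and mdx it was -0.2 (SE 0.26, limma adjusted p = 0.678). Npm1 has many processed pseudogenes, and reads that fit several places were left out by the authors, so its level is uncertain.

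The other genes of the pathway, 134 listed and 133 tested, included 8 called higher (6.02%) and 5 called lower (3.76%) in mdx than in control, against 6.89% and 7.34% of all tested genes. Against mdx, Sirt6mKO/mdx had 3 called higher (2.26%) and 7 lower (5.26%), next to 5.62% and 2.54% of all tested genes. Against control it had 3 higher (2.26%) and 5 lower (3.76%), next to 5.19% and 2.68%. Their median log2 fold changes were 0.11, -0.24 and -0.26 in the order of these comparisons, and those of all tested genes 0.0, 0.02 and 0.01. By list, the counts of genes called higher and lower in mdx were 0 and 0 of 10 other RNA polymerase I genes (4 with an unadjusted p under 0.05), 4 and 2 of 53 small subunit genes, 1 and 2 of 46 large subunit genes, 1 and 1 of 11 snoRNP genes, and 2 and 0 of 13 RNA exosome genes. For Sirt6mKO/mdx against mdx they were 0 and 0 (2 with an unadjusted p under 0.05), 1 and 4, 1 and 2, 1 and 1, and 0 and 0 (0 with an unadjusted p under 0.05). Against control they were 1 and 0, 0 and 2, 1 and 3, 0 and 0 (1 with an unadjusted p under 0.05), and 1 and 0.

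Among them, Utp14b had the lowest log2 fold change in mdx against control (-2.33, SE 0.39, limma adjusted p = 0.00087). Its values were 304 and 376 for control, 43 and 103 for mdx and 139 and 225 for Sirt6mKO/mdx. Utp14b was also called higher in Sirt6mKO/mdx than in mdx (1.39, limma adjusted p = 0.0363). It is a retrotransposed copy of Utp14a, so reads of the copies may be confused. Mak16, a large subunit assembly gene, had 230 and 200 in mdx but 50 and 101 in Sirt6mKO/mdx (-1.58, limma adjusted p = 0.0229). Urb2, which acts early in large subunit assembly, had 193 and 300 in control and 63 and 65 in Sirt6mKO/mdx (-1.89, SE 0.33, limma adjusted p = 0.00232). With 160 and 121 in mdx, Urb2 was also called lower in Sirt6mKO/mdx than in mdx (-1.11, limma adjusted p = 0.0482). Urb1, its partner, had 399 and 440 in control and 153 and 128 in Sirt6mKO/mdx (-1.58, SE 0.31, limma adjusted p = 0.00542). Mdx values of Urb1 were 117 and 207, close to those of Sirt6mKO/mdx, as seen for Rrp12 and Fbl.

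MYC and its partner MAX bind the E-box CACGTG, which reads the same on both strands. RefSeq promoters (GRCm38.p6, from 250 bases before to 50 after the start) were at hand for 32 of the 40 genes, and 6 of these held the motif (18.8%), against 8.09% of 27025 genes with a promoter and 11.5% of the 10540 of these that were tested here. The windows around the motif, in capitals, are printed on the strand of the gene to show where it lies, and a match is not evidence of binding.
Nop2 (chr6:125131811-125131840): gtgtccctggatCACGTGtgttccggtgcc
Utp20 (chr10:88826765-88826789, minus strand): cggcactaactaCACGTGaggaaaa
Pes1 (chr11:3963965-3963994): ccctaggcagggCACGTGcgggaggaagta
Utp18 (chr11:93885769-93885798, minus strand): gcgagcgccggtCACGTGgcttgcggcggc
Rrn3, first match (chr16:13780472-13780501): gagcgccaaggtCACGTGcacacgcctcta
Rrn3, second match (chr16:13780639-13780668): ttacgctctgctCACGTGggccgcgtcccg
Wdr43 (chr17:71616220-71616249): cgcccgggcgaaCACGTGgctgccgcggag

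None of these 6 genes was called by limma in mdx against control, where Myc was lower, and none had an unadjusted p under 0.05. With 7.34% of all tested genes called lower and 15.4% lower at an unadjusted p under 0.05, 0 of 6 is near the background. Their log2 fold changes in mdx against control were -0.45 for Nop2, -0.36 for Utp20, 0.34 for Pes1, 0.23 for Utp18, -0.03 for Rrn3 and 0.27 for Wdr43. In Sirt6mKO/mdx against mdx, where Myc was higher, they were 0.05, -0.78, -1.02, -0.17, -0.38 and -0.77 in the same order. Unadjusted p-values from limma were 0.013 for Utp20, 0.0086 for Pes1 and 0.022 for Wdr43 there, and none of the 6 was called after adjustment. Over all 40 genes, 9 were lower at an unadjusted limma p under 0.05, as were 11.1% of all tested genes. Ddx21 and Ncl, whose promoters lacked the motif, were among the 9. Nop58 had a promoter in the table without this motif, and those of Myc, Fbl, Npm1, Rrp12, Bop1, Rrs1, Gnl2 and Tcof1 were not analysed here.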

How the data were processed

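RNA of freshly sorted MuSCs was sequenced on an Ion Torrent instrument after removal of ribosomal RNA. Per the labels and the study's methods, the authors used Reaper for trimming, STAR (2.4.2a in the submitters' processing notes) for alignment to GRCm38.p5 and featureCounts 1.4.5-p1 for counting per gene, leaving out reads on several genes or places. Use of strand was not given in the sources used here, so genes that overlap on either strand have uncertain values. The deposited values are whole numbers taken as a score: gene counts that the authors divided by a DESeq2 size factor per library and rounded. Size factors of 0.5371 to 1.5268 were recovered from skipped and doubled whole numbers. Approximate depths were 4397699 and 7215746 (control), 9744197 and 7218795 (mdx), and 6219651 and 4771670 reads (Sirt6mKO/mdx).

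Since no raw counts were used, limma 3.58.1 (R 4.3.3) was run on log2(value + 1) of the 15915 genes with a mean of at least 5, with all 6 libraries in 1 fit, a prior variance that follows the mean and two-sided tests. Fold changes are on this scale and understate changes of low genes. All adjusted p-values are from limma with Benjamini-Hochberg adjustment over all tested genes. The study gives 2 biological replicates per group, and the labels name no animals, so p-values measure the spread between these libraries. The fit and the recovery of size factors were tested on simulated data. Exons and snoRNA positions came from GENCODE mouse release 21, which held 98.53% of the identifiers, of which 99.95% overlapped the position in the table. Scaling, pseudocount (0.1 and 5), minimum mean (none and 50), prior variance, samples in the fit, a replicate block and omission of each library were varied. Scaling to the protein-coding total was chosen after seeing the data.

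The 40 genes, their roles and the other lists were chosen with earlier results of these data known. Every called gene of the 40 (up to 10 by size in a comparison) and Myc, Ncl, Npm1, Fbl, Polr1a and Ubtf have full statistics. Of the other pathway genes and the MYC network genes together, the 3 called with the largest log2 fold change in each comparison are named, and Mycn, Fos, the snoRNAs and the genes beside Sirt6, Xist and Ddx3y in the checks were named after their values were seen.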

Additional observations from a re-analysis of the deposited data

How the results depend on the processing

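Among values of single genes under the alternatives, 380 kept their direction and their side of the threshold, 68 lost the call, 6 gained a call and 5 changed sign. Of the 5 genes lower in mdx against control, 3 (Myc, Nop58 and Rrp12) remained without a minimum mean and 2 (Myc and Nop58) with one prior variance for all genes, while scaling to the protein-coding total called 1 gene higher (Npm1) in place of 0 and turned the median log2 fold change from -0.09 to 0.08. In Sirt6mKO/mdx against mdx, the 3 genes called higher became 0 with one prior variance, when Myc and Nop58 had limma adjusted p-values of 0.0689 and 0.0697. The 1 gene called lower became 15 with total counts (2932 of all 15915 tested genes), 0 without a minimum mean (14 of 22489) and with one prior variance (0 of all genes), and 2 with only the 2 groups compared in the fit. The median of -0.24 became -0.86 with total counts. In Sirt6mKO/mdx against control, the 6 genes called lower became 23 with total counts (2692 of 15915), 0 without a minimum mean (52 of 22489) and with one prior variance (22 of 15915), and 3 (Ddx21, Fbl and Rrp12) with the protein-coding total. The median of -0.46 became -1.06 with total counts and -0.29 with the protein-coding total. Total counts and the protein-coding total also move the median of all tested genes, as given above, and a fit without a minimum mean tests 22489 genes. With total counts Polr1a turned from 0.22 to -0.41 in Sirt6mKO/mdx against mdx, and with the protein-coding total Ubtf turned from -0.04 to 0.13 in Sirt6mKO/mdx against control. The cause of the other changes was not tested.

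Leaving out 1 library at a time, the number of genes called higher and lower ranged from 0 to 1 and from 3 to 7 in mdx against control, from 2 to 3 and from 0 to 2 in Sirt6mKO/mdx against mdx, and from 0 to 1 and from 0 to 5 in Sirt6mKO/mdx against control. Medians ranged from -0.32 to 0.04, from -0.31 to -0.17 and from -0.67 to -0.29. Fbl ranged from -0.5 to 0.26 in Sirt6mKO/mdx against mdx and Ubtf from -0.14 to 0.06 in Sirt6mKO/mdx against control. A group left with 1 library is assumed to vary like the others. Replicate numbers are shared between groups but do not pair the libraries: deviations of same-numbered libraries from their group means correlated across genes with r of -0.128 (control and mdx), 0.119 (control and Sirt6mKO/mdx) and 0.009 (mdx and Sirt6mKO/mdx). With the number as a replicate block the counts of genes called lower were 5, 1 and 6, those called higher 0, 3 and 0, and the same genes were called as without it. Depth limits the low genes most: the lowest value, that of Gar1 in Sirt6mKO/mdx replicate 2, rests on about 17 reads, while the lowest of Nop58 rests on about 950.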

Other observations

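RNA exosome genes, whose products trim ribosomal RNA precursors and degrade their by-products, were a group of the pathway in which all 13 tested genes had a log2 fold change above 0 in mdx against control, with a median of 0.37 (0.0 over all tested genes). In Sirt6mKO/mdx against mdx, a comparison that shares the mdx libraries, 12 of the 13 were below 0, with a median of -0.39 (0.02 over all tested genes). In mdx 2 of them were called higher (15.4%, against 6.89% of all tested genes). C1d, an exosome cofactor gene, had values of 113 and 125 for control, 328 and 293 for mdx and 328 and 344 for Sirt6mKO/mdx, and was called higher than in control both in mdx (2.59-fold, limma adjusted p = 0.00236) and in Sirt6mKO/mdx (2.81-fold, limma adjusted p = 0.00238). Exosc9, a subunit of the exosome ring, had 144 and 120 for control, 293 and 241 for mdx and 178 and 223 for Sirt6mKO/mdx, and was called higher in mdx than in control (2.01-fold, limma adjusted p = 0.0244). None of the 13 was called by limma in Sirt6mKO/mdx against mdx, where 0 had an unadjusted p under 0.05.

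Among assembly genes beyond the 40, Nmd3, the export adaptor of the large subunit, had 196 and 156 for control, 394 and 299 for mdx and 340 and 510 for Sirt6mKO/mdx, and was called higher in Sirt6mKO/mdx than in control (log2 fold change 1.25, limma adjusted p = 0.0141). Heatr1, an early small subunit factor gene, had 600 and 1019 for control, 514 and 514 for mdx and 279 and 272 for Sirt6mKO/mdx, and was called lower in Sirt6mKO/mdx than in control (-1.5, limma adjusted p = 0.00312). Mdn1, the gene of a large AAA ATPase that remodels the large subunit, was called lower than control in both mdx (-1.15, limma adjusted p = 0.0117) and Sirt6mKO/mdx (-1.42, limma adjusted p = 0.00584), with 2482 and 3400 for control, 1066 and 1604 for mdx and 1063 and 1104 for Sirt6mKO/mdx. The 5 genes named here were chosen after their values were seen, and in each comparison with control sex and genotype cannot be told apart.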
